A study of Arabidopsis thaliana with 6 samples.

Results

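The aquaporin genes of Arabidopsis thaliana were followed in imbibed seeds through 31 of the 22746 probe sets (groups of probes that read 1 transcript or several alike) on each of 6 Affymetrix arrays. They are the probe sets whose title in the authors' comparison table contains "aquaporin", "major intrinsic", "tonoplast intrinsic" or "plasma membrane intrinsic". By these titles 7 belong to the plasma membrane class (PIP) and 3 to the vacuole class (TIP). The titles of the other 21 give neither class. For 19 of these the files pair no gene, so their class is not known here and PIPs or TIPs may be among them. The files name 1 gene for 8 of the 31, and the other 23 carry a family title only and are given here by their probe set ID. Of the 31, 5 have names ending in _s_at and were designed on sequence that several transcripts share. The arrays held total RNA from 3 samples of agl67 mutant seeds and 3 samples of wild-type seeds, both of the ecotype Columbia-0 (Col-0). The labels call the mutant "mads-box" and the series title calls it agl67, and neither says which allele it carries. AGL67 belongs to the MADS-box family of transcription factors. Every sample, mutant or wild type, spent 3 days in water at 4 °C without light, followed by 3 hours of illumination at 22 °C in 5 µM ABA (abscisic acid, a hormone that delays germination), and RNA was taken before germination. The labels call the samples biological replicates without saying whether they came from separate plants or seed lots, so p-values measure the spread between these samples, which may be technical in part.

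Aquaporins are membrane channels that let water, and in some members glycerol or other small neutral molecules, pass down their gradients. PIPs sit in the plasma membrane and TIPs in the membrane of the vacuole, the tonoplast. NOD26-like proteins form a further plant class with members that also carry small solutes. In plants, PIP1 proteins are known to work together with PIP2 proteins, which help them to reach the plasma membrane. In seeds alpha-TIP lies in the membrane of the protein storage vacuoles, and other aquaporins become prominent as the embryo takes up water and its cells elongate.

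AGL67 itself read 4.15, 4.30 and 3.66 on the log2 scale in the mutant samples, against 8.79, 8.25 and 8.78 in the wild-type samples, which fits the labels (limma adjusted p = 0.000887). By an exact two-sided permutation of the arrays p was 0.1, and a comparison of 3 with 3 cannot give less. Of the seed embryo markers, CRU1, EM1 and EM6 were paired with a probe set and read between 12.2 and 14.0 on all arrays. CRU1 read 13.40, 13.37 and 13.47 in mutant seeds, against 13.62, 13.63 and 13.76 in wild-type seeds, groups that did not overlap. Its log2 difference of -0.26 did not pass (limma adjusted p = 0.245). EM1 and EM6 differed by 0.13 and 0.021, with groups that overlapped, and by 0.25 and 0.034 without the third wild-type array. The endosperm expansin gene EXPA2 read 4.61, 4.31 and 4.92 in mutant seeds, against 3.62, 4.25 and 3.47 in wild-type seeds, groups that did not overlap, with a log2 difference of 0.84 that did not pass (limma adjusted p = 0.127). It was the 1 endosperm marker of 3 listed that was paired with a probe set, no green-tissue marker was, and the part of the endosperm in the results below was not tested. In whole seeds, fewer cells of a type and less RNA per cell cannot be told apart. The third wild-type array stood apart from the others. Its median over all probe sets was 3.80, against 3.97 to 4.00 on the other 5, and the 3′ probe set of its actin control exceeded the 5′ one by 4.18, against 3.18 to 3.59. By the same measure of the GAPDH and ubiquitin controls it did not stand apart (1.07, against 0.95 to 1.29, and 1.10, against 0.98 to 1.16). It was the lowest of the 6 arrays for 22 of the 31 aquaporin probe sets and for 44.3% of all probe sets. Differences that moved by over 1.5 times when it was left out are given both ways.

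Aquaporin probe sets that passed were all higher in the mutant, and most of those that passed had plasma membrane titles. Only 3 members have vacuole titles and most have a title that gives no class, so the classes cannot be compared in full. PIP1C, PIP1A and a further PIP probe set (255674_at) rose by about 1.78-fold to 2.10-fold, and a probe set titled as related to major intrinsic proteins (250025_at) rose 2.59-fold. These 4 passed at an adjusted p under 0.05 in limma and 27 did not pass. In the same fit 1.93% of all probe sets were called higher and 0.778% lower. No aquaporin probe set was called lower, and 0 are lower in the authors' deposited table at a false discovery rate under 0.05. At an unadjusted p under 0.05 in limma 12 of the 31 were higher and 0 lower, where 11.1% and 5.33% of all probe sets were. On all 3 mutant arrays 13 of the 31 read above every wild-type array and 0 read below every one, as did 14.9% and 9.16% of all probe sets. The log2 change was above 0 for 27 of the 31, with a median of 0.26, against 54.9% and a median of 0.024 over all probe sets. In the fit that left out the third wild-type array the change was above 0 for 26, with a median of 0.17, against 46.6% and a median of -0.014 for the whole array. That fit called 6 of the 31 higher and 0 lower, where 3.86% and 2.87% of all probe sets were called.

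**Figure D1:**
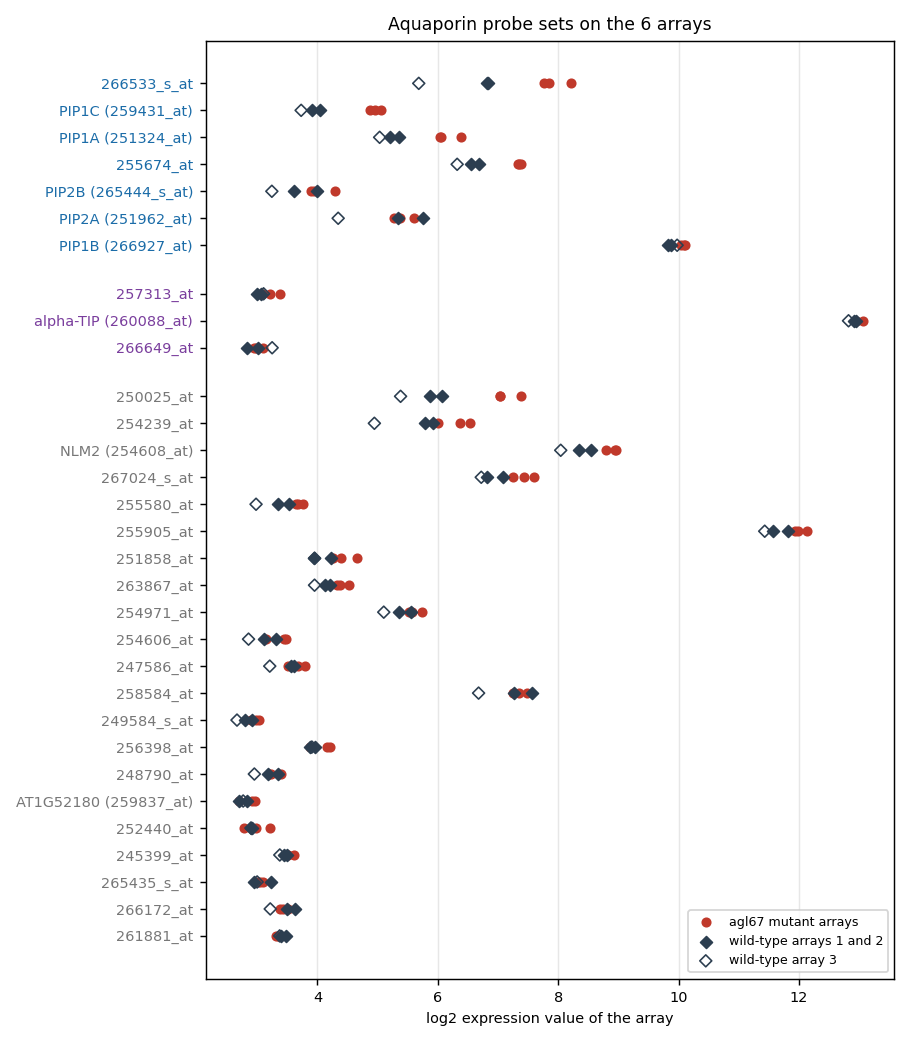
Log2 expression value (x axis) of each aquaporin probe set (rows) on every array, with filled circles for the 3 mutant arrays, filled diamonds for the first and second wild-type arrays and an open diamond for the third wild-type array. Rows are grouped as PIP, TIP and other titles, from the largest to the smallest change within a group. The mutant points of 13 rows lie wholly to the right of the wild-type points, and levels of different rows are not comparable.

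In the plasma membrane class, PIP1C (AT1G01620, also called PIP1;3), a member of the PIP1 group, read 4.87, 5.06 and 4.96 in mutant seeds, against 3.91, 4.04 and 3.73 in wild-type seeds. The lowest mutant sample lay above the highest wild-type sample, and the wild-type samples were the more spread out. The means were 4.96 ± 0.094 in the mutant and 3.89 ± 0.15 in wild type (SD, n = 3 each). It rose by 1.07 (SE 0.12), 2.10-fold, with a limma adjusted p of 0.00603, the smallest among the aquaporins.

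PIP1A (AT3G61430, also PIP1;1), another PIP1 channel, read 6.03, 6.06 and 6.38 in mutant seeds, against 5.35, 5.21 and 5.03 in wild-type seeds. The groups did not overlap, and the third mutant sample was the highest of all. Its means were 6.16 ± 0.19 in the mutant and 5.20 ± 0.16 in wild type (SD, n = 3 each), a rise of 0.96 (SE 0.14), 1.95-fold (limma adjusted p = 0.0165). In the authors' deposited table its ratio was 0.95 with a false discovery rate of 0.0723, above the threshold of 0.05.

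The probe set 255674_at, titled as a putative plasma membrane intrinsic protein, read 7.35, 7.39 and 7.33 in mutant seeds, against 6.68, 6.56 and 6.32 in wild-type seeds. The mutant samples lay close together (SD 0.032) and all above the wild-type samples (SD 0.18). It rose by 0.83 (SE 0.12), 1.78-fold (limma adjusted p = 0.0158).

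The largest difference in the class belonged to 266533_s_at, a probe set with the same putative title listed for 2 transcripts, which it cannot tell apart. It read 7.85, 8.21 and 7.77 in mutant seeds, against 6.84, 6.82 and 5.68 in wild-type seeds. The groups did not overlap, but the third wild-type array lay more than 1.0 below the other wild-type arrays and gave that group an SD of 0.66. Its log2 difference was 1.50 (SE 0.31, 95% interval 0.78 to 2.22) and it did not pass (limma adjusted p = 0.0537). Without the third wild-type array the difference was smaller, 1.11, and it passed (adjusted p = 0.00261).

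PIP1B (AT2G45960, also PIP1;2), the remaining named PIP1 gene, read 10.11, 10.04 and 10.10 in mutant seeds, against 9.82, 9.88 and 9.98 in wild-type seeds. Each mutant sample lay above each wild-type sample by a small margin. Its log2 difference was 0.19 (95% interval -0.030 to 0.41), which did not pass (limma adjusted p = 0.373). The upper bound of that interval lies below the lower bounds for PIP1C (0.80) and PIP1A (0.64). The difference between these genes was not tested.

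Both named PIP2 genes, which encode the more active water channels of the plasma membrane, gave groups that overlapped. PIP2A (AT3G53420, also PIP2;1) read 5.26, 5.38 and 5.61 in mutant seeds, against 5.75, 5.34 and 4.34 in wild-type seeds. The first wild-type sample was the highest of the 6 and the third wild-type sample the lowest, so the wild-type SD was 0.72 and that of the mutant 0.18. The log2 difference of 0.27 had a 95% interval from -0.49 to 1.03 and did not pass (limma adjusted p = 0.733), and it turned to -0.13 without the third wild-type array. PIP2B (AT2G37170, also PIP2;2), on a design shared by transcripts that it cannot tell apart, read 3.90, 4.29 and 3.95 in mutant seeds, against 3.99, 3.61 and 3.24 in wild-type seeds. The first wild-type sample lay within the mutant range. Its difference was 0.43 (95% interval -0.044 to 0.90, adjusted p = 0.353), and 0.24 when the third wild-type array was left out.

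Over the class, 3 of the 7 PIP probe sets were called higher and 4 did not pass. All 7 had a log2 change above 0, with a median of 0.83. Without the third wild-type array 6 of 7 were above 0, the median was 0.73 and 4 were called.

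**Figure D2:**
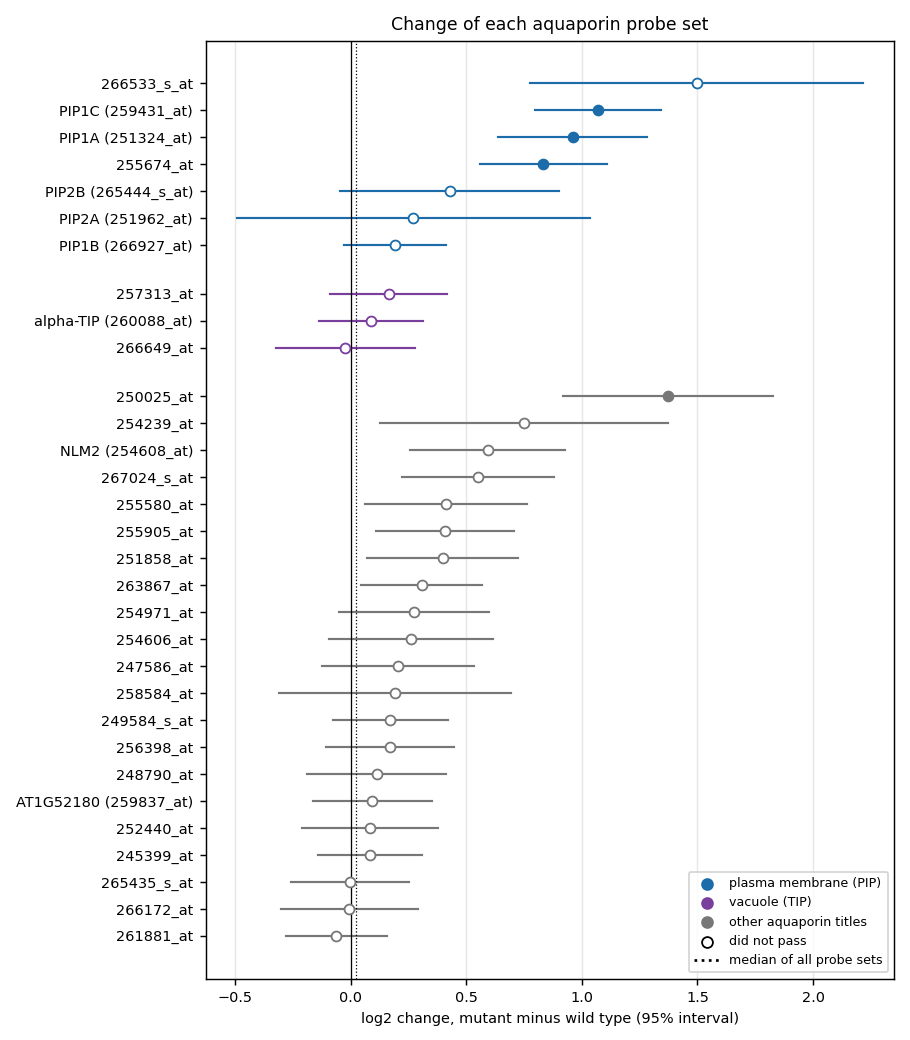
Log2 change, mutant minus wild type (x axis), of each aquaporin probe set with its 95% interval from limma. Filled points passed at an adjusted p under 0.05, open points did not, and the dotted line is the median of all probe sets (0.024). The filled points are PIP1C, PIP1A, 255674_at and 250025_at, and the TIP rows lie near 0.

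The vacuole class showed no call. Alpha-TIP (AT1G73190, TIP3;1), the seed isoform of the storage vacuole membrane, read 12.96, 13.07 and 12.94 in mutant seeds, against 12.95, 12.91 and 12.82 in wild-type seeds. The groups overlapped and the SDs were 0.070 in the mutant and 0.066 in wild type. The difference was 0.089 (95% interval -0.14 to 0.31, limma adjusted p = 0.701), so a change of the size seen for PIP1C lies outside its interval. The fit without the third wild-type array gave 0.053.

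Of the putative tonoplast proteins, 257313_at read 3.37, 3.09 and 3.21 in mutant seeds, against 3.07, 3.00 and 3.11 in wild-type seeds, and 266649_at read 3.09, 2.98 and 2.94 in mutant seeds, against 2.83, 3.01 and 3.25 in wild-type seeds. Both lay below the median reading of all probe sets on every array, where the files do not say whether a signal is above background. Their differences were 0.16 and -0.022, the second turned to 0.087 with the third wild-type array left out, and neither passed. The class median was 0.089, and 0.087 without the third wild-type array, with 0 of 3 called and 0 at an unadjusted p under 0.05 in limma, nor any called in the authors' deposited table. A further vacuole gene, delta-TIP (AT3G16240, TIP2;1), is titled a tonoplast integral protein and so falls outside the wording that chose the members. It read 3.91, 3.86 and 3.74 in mutant seeds, against 3.74, 4.12 and 3.30 in wild-type seeds, and did not pass either (difference 0.11, limma adjusted p = 0.822, and -0.096 with the third wild-type array left out).

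Per array, the median PIP probe set lay 0.35, 0.45 and 0.39 above its own mean over the 6 arrays in the mutant samples and -0.26, -0.38 and -0.64 from it in the wild-type samples. For the TIP class these medians were 0.077, -0.038 and -0.0057 in the mutant samples and -0.072, -0.029 and -0.035 in the wild-type samples. For the 21 other titles they were 0.092, 0.098 and 0.15 in the mutant samples and -0.038, -0.034 and -0.30 in the wild-type samples. The PIP class and the other titles thus both parted the genotypes on every array, the other titles by less. In both, the third wild-type array lay farthest out. Over all probe sets the same medians were 0.0071 to 0.017 in the mutant samples, against 0.012, 0.031 and -0.11 in the wild-type samples.

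**Figure D3:**
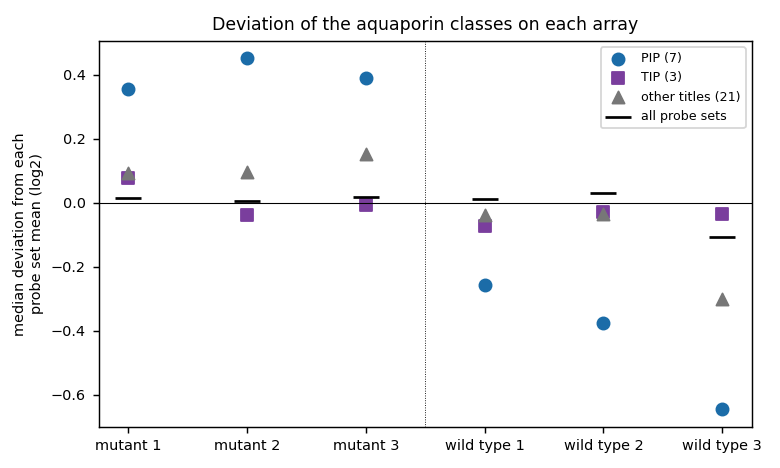
Median deviation of each class from its probe sets' own 6-array means (y axis, log2) on the 3 mutant arrays and the 3 wild-type arrays (x axis). Circles are the 7 PIP, squares the 3 TIP and triangles the 21 other probe sets, and dashes are all probe sets. PIP medians are 0.35 to 0.45 on mutant arrays and -0.64 to -0.26 on wild-type arrays.

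Among the 21 probe sets with other titles, 1 was called higher, 0 lower and 20 did not pass. The called one, 250025_at, is titled only as related to major intrinsic proteins, and the files pair no gene with it. It read 7.04, 7.39 and 7.03 in mutant seeds, against 6.08, 5.88 and 5.38 in wild-type seeds. The lowest mutant sample lay well above the highest wild-type sample, and the means were 7.15 ± 0.20 in the mutant and 5.78 ± 0.36 in wild type (SD, n = 3 each). It rose by 1.37 (SE 0.19), 2.59-fold (limma adjusted p = 0.0161).

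NLM2 (AT4G18910, also NIP1;2), a NOD26-like aquaglyceroporin, read 8.79, 8.95 and 8.96 in mutant seeds, against 8.54, 8.34 and 8.04 in wild-type seeds. The groups did not overlap, and the wild-type samples were the more spread out (SD 0.097 in the mutant and 0.25 in wild type). The difference of 0.59 (95% interval 0.26 to 0.93) did not pass with all arrays (limma adjusted p = 0.0843). It passed without the third wild-type array, with 0.46 (adjusted p = 0.0440), and after renewed quantile normalisation of the 6 arrays, with 0.55 (adjusted p = 0.0405).

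A pair of major intrinsic family probe sets also had groups that did not overlap with differences over 0.5. The shared design 267024_s_at read 7.24, 7.44 and 7.60 in mutant seeds, against 7.09, 6.82 and 6.72 in wild-type seeds. The lowest mutant and the highest wild-type sample lay close, and the difference of 0.55 (SE 0.14) did not pass (limma adjusted p = 0.101). The probe set 254239_at read 6.37, 6.54 and 6.01 in mutant seeds, against 5.93, 5.79 and 4.95 in wild-type seeds. The third wild-type array was again the lowest by a wide margin, and the difference of 0.75 (SE 0.27) did not pass (adjusted p = 0.218). With that array left out it was 0.45 and did not pass either (adjusted p = 0.133).

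In 4 more probe sets with other titles the mutant samples lay above the wild-type samples without passing. The major intrinsic family probe set 255905_at read 11.98, 12.13 and 11.94 in mutant seeds, against 11.82, 11.58 and 11.43 in wild-type seeds (difference 0.41, limma adjusted p = 0.170). The putative aquaporin 251858_at differed by 0.40, and 255580_at and 263867_at of the major intrinsic family by 0.41 and 0.31 (adjusted p = 0.214, 0.228 and 0.232). Of these 4, 255580_at moved most with the third wild-type array left out, to 0.26.

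For the remaining 13 the groups overlapped, and none passed. The differences lay between 0.17 and 0.27 for 254971_at, 254606_at, 247586_at, 258584_at, 249584_s_at and 256398_at, and between -0.052 and 0.17 in the fit without the third wild-type array. They lay between -0.061 and 0.11 for 248790_at, AT1G52180 (259837_at), 245399_at, 252440_at, 265435_s_at, 266172_at (a second putative aquaporin) and 261881_at, and between -0.12 and 0.095 in that fit. AT1G52180, of the major intrinsic family, is the 1 member that the platform's own table names. The 21 probe sets with other titles had a median of 0.20, and of 0.14 without the third wild-type array.

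The members were also split at the median reading of all probe sets, by their mean over the 6 arrays, with 17 read above it and 14 below. The mean includes the mutant arrays, and PIP1C and 256398_at stand above the median reading through their mutant values. In wild-type seeds PIP1C read 3.91, 4.04 and 3.73 and 256398_at read 3.87, 3.95 and 3.91, where the array medians were 3.97, 3.98 and 3.80. The counts for the brighter members thus depend in part on the split itself, and all probe sets were split by the same mean. All 17 brighter members had a change above 0 (median 0.41), 4 were called and in 12 the mutant samples lay above the wild-type samples. Of all probe sets read above that median 3.59% were called higher, 23.1% had the mutant samples above the wild-type samples, and the median change was 0.096. Of the 14 dimmer members 0 were called in limma, 1 was higher at an unadjusted p under 0.05 and the median was 0.10. Of all probe sets read below the median 0.264% were called higher, 3.47% were higher at an unadjusted p under 0.05 and the median change was -0.011. It was -0.022 without the third wild-type array. Most calls of the whole array, 408 of the 438 higher ones, likewise lay above the median reading. Without the third wild-type array the brighter members had a median of 0.35, where the corresponding probe sets of the array had 0.0049, and 15 of 17 were above 0.

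Spread between samples was larger in wild type for 23 of the 31 members, as for 75.1% of all probe sets. The median SD was 0.113 in the mutant samples and 0.191 in the wild-type samples, against 0.104 and 0.186 over all probe sets. The most variable members were PIP2A (wild-type SD 0.72), 266533_s_at (0.66), 254239_at (0.53) and 258584_at (0.45), each with its lowest value on the third wild-type array.

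The calls depended on which arrays were fitted, while their differences stayed of like size. Leaving out 1 array at a time, PIP1C passed in 4 of 6 fits and its difference lay between 0.99 and 1.14. The fits without the second mutant array (limma adjusted p = 0.0547) and without the third mutant array (0.0570) lost it. PIP1A (0.85 to 1.04), 255674_at (0.73 to 0.91) and 250025_at (1.18 to 1.52) passed in 2 of 6 fits, those without the first and without the third wild-type array. Their adjusted p in the other 4 fits lay between 0.0581 and 0.103. Without the second or the third mutant array 0 aquaporins were called, with 9 and 10 at an unadjusted p under 0.05, and in these fits 93 and 86 probe sets were called in all, against 615 with all arrays. The authors' deposited table calls 3 aquaporins at a false discovery rate under 0.05, which are PIP1C (ratio 1.02, 0.00759), 255674_at (0.84, 0.0213) and 250025_at (1.38, 0.0349).

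**Figure D4:**
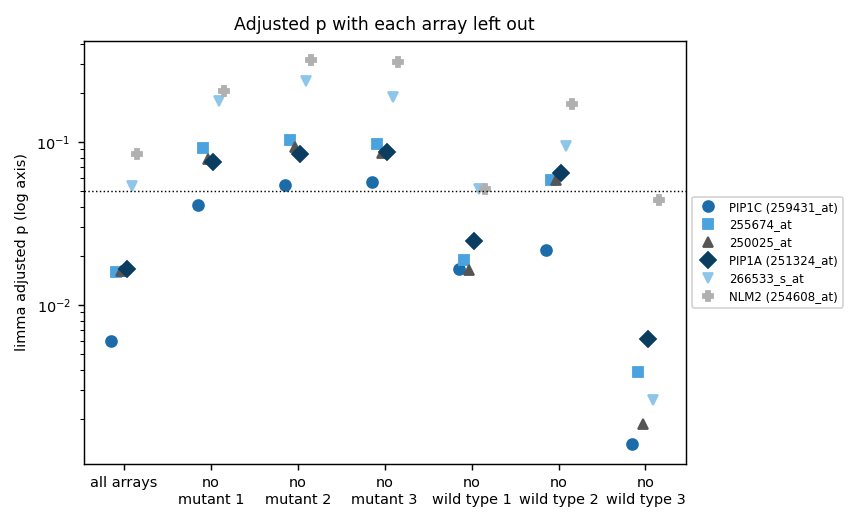
Limma adjusted p (y axis, log scale) of 6 aquaporin probe sets with all arrays and with each array left out in turn (x axis, mutant arrays before wild-type arrays). The dotted line is the threshold of 0.05. PIP1C lies under it in 4 of the 6 fits that leave out 1 array, and the fit without the third wild-type array puts all 6 probe sets under it.

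Water flow follows solutes, which proton pumps and potassium channels move across the same membranes, and written lists of these genes were read in the same fit. Of 28 listed genes for proton pumps 10 were paired with a probe set, and 0 passed in limma in either direction (2 higher and 0 lower at an unadjusted p under 0.05), with a median of 0.13, and of 0.054 without the third wild-type array. The smallest p-values were those of VHA-F, a subunit of the vacuolar proton ATPase, with 0.28 (adjusted p = 0.194), and VHA-G1, another subunit, with 0.38 (adjusted p = 0.290). Of 22 listed genes for potassium transport 13 were paired, and 0 passed in limma (6 higher and 2 lower at an unadjusted p under 0.05), with a median of 0.030, and of -0.047 in the fit without that array. Those 6 are 46.2% of the 13, where 38.7% of the aquaporins and 11.1% of all probe sets were higher. Over all probe sets 5.33% were lower at that p. In 5 of the 13 all mutant samples lay above the wild-type samples and in 3 below, as in 14.9% and 9.16% of all probe sets. KUP4, a transporter known from root hair growth, had the smallest p-value, with a difference of -0.56 (adjusted p = 0.117). It read 5.61, 5.59 and 5.91 in mutant seeds, against 6.06, 6.52 and 6.22 in wild-type seeds, so the groups did not overlap. By title alone, 12 probe sets for plasma membrane proton ATPases had a median of -0.046 and 21 for the vacuolar proton ATPase one of 0.10, with 0 called in either. These medians were -0.013 and 0.027 in the fit without the third wild-type array. The authors' table gives 0 calls for the proton pump list and for the potassium list as well.

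**Figure D5:**
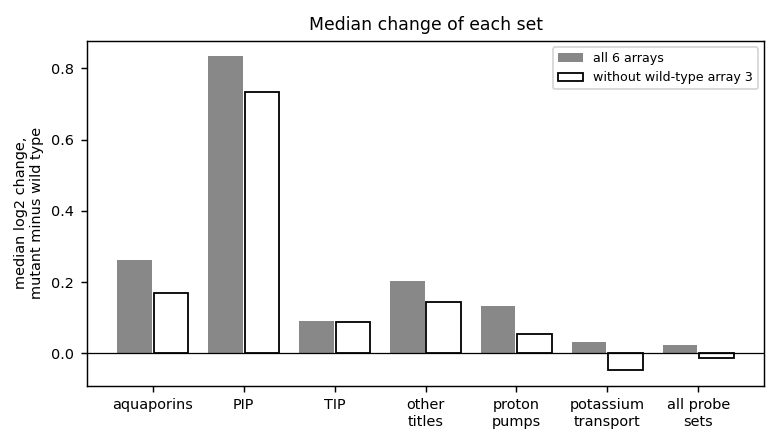
Median log2 change, mutant minus wild type (y axis), of the aquaporins, their classes, the proton pump and potassium transport lists and all probe sets, with all 6 arrays (grey bars) and without the third wild-type array (open bars). The PIP median is 0.83 and 0.73, and the other medians lie between 0.024 and 0.26 with all arrays and between -0.047 and 0.17 without that array.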

How the data were processed

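Per the submitters' processing notes, the authors used RMA and limma, with no version named. The deposited value table holds the authors' log2 values, 1 per probe set and array. It was used without further scaling. A second table, also deposited, lists log2 ratios (the mutant on top) with limma p-values and false discovery rates, per the file headers, and served as an alternative. Genome build and annotation are not given in the sources used here, so no coordinates are given.

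The 64 control probe sets were left out, which leaves 22746. Mutant minus wild type was fitted with genotype as the only term in limma 3.58.1 (R 4.3.3; lmFit and eBayes) and adjusted over all probe sets by the Benjamini-Hochberg method, threshold 0.05. The precision is limited by 3 arrays per group. Members and lists were chosen with earlier results of these data known. Listed genes were paired through the platform's table or through a name in the authors' title that belongs to 1 gene in RefSeq (TAIR10.1), which can miss or mistake genes. The title sets of proton ATPases were added after the files were read. All 31 members are named, and values are given per sample for those that passed, that passed in a fit without 1 array, or that did not overlap with a change over 0.5, and for genes named in the titles, TIP members and 255905_at. From the other lists the genes with the 2 smallest p-values were to be named, and 1 of them is not reported here. On simulated data the fit over 22746 probe sets recovered 9 of 50 log2 changes of 0.5, 29 of 50 of 1 and 46 of 50 of 2. Of its 138 calls 4 were false. The simulation gave each probe set its pooled SD, the same in both groups, and no array that stood apart. Its shares need not hold for these arrays. The labels do not say whether same-numbered samples were paired. Same-numbered arrays had correlations of -0.16, 0.14 and 0.22 in their deviations from the group means, and differently numbered arrays -0.33 to 0.34. With 3 arrays per group these values cannot settle it, and a fit with replicate blocks is given below. Protein and promoter comparisons were not run.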

Additional observations from a re-analysis of the deposited data

How the results depend on the processing

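Differences of the 4 called aquaporins kept their direction under all alternatives tried, and the calls moved with the arrays in the fit. The number called higher lay between 0 and 6 with 1 array left out and between 3 and 6 otherwise, and 0 were called lower in any. With the replicate block, 5 were called, 266533_s_at being added at an adjusted p of 0.0287, and no other aquaporin call changed. Among all probe sets 438 were higher and 177 lower, so 71.2% of the calls were higher. With 1 array left out, 68 to 877 were higher and 18 to 653 lower. Array weights gave 956 and 534, the replicate block gave 110 lower, renewed quantile normalisation 449 lower (56.9% of calls higher), median centring 340 lower, and quantile normalisation without the third wild-type array, chosen after seeing the data, 864 and 738. That last setting also called 1 proton pump lower, as did leaving out that array alone (0 to 1 over the arrays), and array weights called 1 potassium gene lower. Medians with 1 array left out were 0.17 to 0.32 for aquaporins, 0.73 to 0.91 for PIP, 0.05 to 0.12 for TIP, 0.14 to 0.28 for other titles, 0.05 to 0.20 for proton pumps and -0.047 to 0.25 for potassium transport. Without the dimmest 40% of probe sets, 21 aquaporin probe sets were left. The median was then 0.41 for aquaporins, 0.40 for other titles and 0.21 for potassium transport. Over all probe sets it was 0.083 in that setting, against 0.024 in the main fit. Median centring gave 0.021 for TIP and array weights -0.068 for potassium transport. Among members that did not pass, 6 turned in sign, and with 1 array left out their differences were -0.13 to 0.58 for PIP2A, -0.025 to 0.19 for 252440_at, -0.052 to 0.39 for 258584_at, -0.059 to 0.082 for 265435_s_at, -0.12 to 0.081 for 266172_at and -0.12 to 0.087 for 266649_at. PIP2A and 258584_at turned when the third wild-type array was left out, and gave -0.16 and -0.066 when quantile normalisation was added to that. Quantile normalisation alone gave 0.014 for 265435_s_at, and the authors' deposited table gives 0.04 for 266172_at and 0.01 for 266649_at. The last also turned with array weights (0.038) and in quantile normalisation without the third wild-type array (0.12). The cause of these turns was not tested.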
